A study of Homo sapiens with 6 samples.

Results

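Among 43757 kept cells of human retinal organoid fragments, 3056 carried transcripts of stress-induced death and signalling genes together: each had at least 3 summed unique molecular identifiers (UMIs) of HRK, TRIB3, BBC3 and PPP1R27, with at least 2 of the 4 genes detected. A kept cell had at least 1000 UMIs, at least 500 detected genes and at most 20% of its UMIs from mitochondrially encoded genes. These cells are called members here, and the other 40701 kept cells are called other cells. The measured values of the 4 genes chose the members, so the levels of those genes are given as a description.

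All cells came from 1 human embryonic stem cell line, WA09 CRX-tdTomato, which carries a fluorescent reporter for CRX, a transcription factor of photoreceptors and their precursors. Organoids had been cultured for 113 to 126 days and broken into fragments. In the 3 Transplanted samples the fragments had been placed for 3 days under the retina of dogs with normal eyes, and in the 3 Cultured samples fragments of the same organoid batches, broken in the same way, had stayed in culture for 3 days. Each sample is 1 library, and the labels give a Set number, 1 to 3, to a Transplanted and a Cultured sample each, without saying whether a Set is a batch.

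The integrated stress response is a shared pathway by which amino acid shortage, protein misfolding, mitochondrial damage and other insults slow translation and raise the transcription factor ATF4. ATF4 and its partner DDIT3, also called CHOP, switch on genes of amino acid uptake and synthesis and, when the stress lasts, genes of cell death. In injured neurons, including retinal ganglion cells, a kinase cascade through DLK and JNK also raises ATF3, DDIT3 and the pro-death genes HRK and BBC3.

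HRK (ENSG00000135116, chr12:116856144-116881441, minus strand) encodes harakiri, a BH3-only protein that blocks BCL2-type survival proteins. BBC3 (ENSG00000105327, chr19:47220822-47232766, minus strand) encodes PUMA, a BH3-only protein best known as a p53 target. TRIB3 (ENSG00000101255, chr20:362835-397559, plus strand) encodes a pseudokinase that is induced by ATF4 and DDIT3. PPP1R27 (ENSG00000182676, chr17:81833492-81835050, minus strand) encodes a regulatory subunit of protein phosphatase 1. These positions are those of GENCODE v29 on GRCh38.

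The promoter windows of HRK, BBC3, PPP1R27 and CHAC1 are shown, and each held a match to one of the elements searched. Windows of ATF3, DDIT3, SLC3A2, ATF5 and CEBPG also held a match but are not printed. Those of TRIB3, SESN2, GDF15 and CEBPB, among other genes, held none and are not printed. The sequence is the RefSeq sequence of GRCh38.p14 for the 250 bases before a RefSeq start, read on the gene's own strand. That start can lie inside the GENCODE bounds. Read on the gene's own strand, the BBC3 window ends within the gene as given above, and the TRIB3 windows lie within the TRIB3 gene. Capitals mark matches to the C/EBP-ATF element to which ATF4 dimers bind, searched as TGATGNAA, or to the AP-1 element, searched as TGANTCA; both strands were searched, and no run of letters can match both. The HRK window is chr12:116881442-116881691, the BBC3 window chr19:47232668-47232917 and the PPP1R27 window chr17:81835051-81835300, all on the minus strand. The window of CHAC1, an ATF4 target that degrades glutathione, is chr15:40953221-40953470 on the plus strand, and is shown as a gene outside the rule that was also higher in members.
HRK: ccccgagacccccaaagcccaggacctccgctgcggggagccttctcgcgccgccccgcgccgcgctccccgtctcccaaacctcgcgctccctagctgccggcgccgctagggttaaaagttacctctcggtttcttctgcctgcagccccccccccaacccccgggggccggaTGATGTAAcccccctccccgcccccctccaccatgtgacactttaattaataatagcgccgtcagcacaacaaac
BBC3: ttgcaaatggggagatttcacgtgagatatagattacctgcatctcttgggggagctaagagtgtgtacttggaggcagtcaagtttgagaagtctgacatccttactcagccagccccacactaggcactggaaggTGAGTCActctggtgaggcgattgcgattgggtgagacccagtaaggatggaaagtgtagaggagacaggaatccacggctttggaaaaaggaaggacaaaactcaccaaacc
PPP1R27: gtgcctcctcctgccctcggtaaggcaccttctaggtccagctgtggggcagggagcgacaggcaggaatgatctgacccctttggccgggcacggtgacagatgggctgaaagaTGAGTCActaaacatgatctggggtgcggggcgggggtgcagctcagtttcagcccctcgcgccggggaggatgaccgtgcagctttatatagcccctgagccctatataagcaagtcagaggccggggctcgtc
CHAC1: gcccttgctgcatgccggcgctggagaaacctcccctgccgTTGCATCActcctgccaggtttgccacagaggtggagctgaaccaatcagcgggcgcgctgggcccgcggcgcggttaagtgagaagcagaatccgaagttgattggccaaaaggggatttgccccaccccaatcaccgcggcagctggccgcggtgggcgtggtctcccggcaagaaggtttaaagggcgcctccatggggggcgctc

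The HRK window held TGATGTAA, which begins 75 bases before the start. The BBC3 window held TGAGTCA at 113 bases before the start, and the PPP1R27 window held the same letters at 135. In CHAC1 the match, at 209 bases before the start, was TTGCATCA, the reverse complement of a C/EBP-ATF element. No match to TGATGNAA, TGANTCA or the cyclic AMP element TGACGTCA was found in the 3 TRIB3 windows of the table. Among all 35116 windows of this length, 3.14% held TGATGNAA, 6.57% held TGANTCA and 1.65% held TGACGTCA, and a match is a run of letters, not a measured binding site. Of the 13 ATF4-list genes that rose in members, as described later, 10 had a window, and 2 of these genes held TGATGNAA and 3 held TGANTCA. Some of them had several windows, and a match in any window counted. These counts per gene are therefore not comparable with the shares per window.

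Before filtering, the libraries held 45281930, 6850189 and 43989876 UMIs in Transplanted 1, 2 and 3, against 74298633, 108222149 and 8000032 UMIs in Cultured 1, 2 and 3. The kept cells numbered 7809, 694 and 4818 in the Transplanted samples, against 17899, 10652 and 1885 in the Cultured samples. Of 43558 distinct barcodes, 199 occurred in more than 1 library. The file headers name Cell Ranger 6.0.2 for both samples of Set 1 and Cell Ranger 7.1.0 for Sets 2 and 3.

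At the edge of the rule, 930 members (30.4%) had exactly 3 summed UMIs, 2579 other cells had exactly 2, and 538 other cells had 3 or more of 1 gene alone. The median member had 4 summed UMIs and the highest had 113, and 30652 other cells had none. The trio HRK, TRIB3 and BBC3 without PPP1R27 was the most frequent combination, found in 987 members (32.3%), ahead of HRK with BBC3 alone in 607, TRIB3 with BBC3 alone in 496 and HRK with TRIB3 alone in 327. All 4 genes were detected in 173 members (5.66%). Members were deeper than other cells: their median UMI total was 6971.5, 9643.5 and 13429 in Transplanted 1, 2 and 3 and 6457.5, 15089 and 6972.5 in Cultured 1, 2 and 3, against 3247, 2651, 2922, 3074, 4039 and 2072 in the other cells of the same samples.

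To set members against cells of similar depth and kind, each was given up to 3 matched cells, 9157 in all: other cells of the same sample with the same leading list of cell type markers and the nearest UMI total. The leading list of a cell is the one with the highest mean standardised marker level among 18 lists, which is a range on a score and not a cell type. Matched cells were still shallower than members in Transplanted 2, Transplanted 3 and Cultured 2, with medians of 5184, 5597 and 8354 UMIs. Each comparison was therefore repeated on a thinned set, in which every cell was reduced to 3000 UMIs before the rule was applied, so that 546 cells were members. Matched cells of that set were drawn from all kept cells that did not meet the rule after thinning. They could therefore include cells that met the rule at full depth. In the thinned set the full counts of members and their matched cells had medians of 4688, 4746, 6011.5, 4722, 5221 and 3676 UMIs, against 4703, 4776, 6003.5, 4729, 5250.5 and 3624 UMIs. Both this set and a further one of matched cells within 1.25-fold of the member's UMI total were chosen after the data had been seen. Levels are CPM, the summed counts of each kind of cell in a sample scaled to 1000000 UMIs, and values of matched or other cells are listed in the sample order of the members.

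HRK, as chosen by the rule, stood at 91.8, 57.6 and 52.8 CPM in members of Transplanted 1, 2 and 3 and 119.9, 59.0 and 112 CPM in members of Cultured 1, 2 and 3, against 18.2, 15.4, 18.6, 16.4, 18.5 and 31.2 CPM in matched cells. BBC3 stood at 124, 97.9 and 92.1 CPM in Transplanted members and 143, 56.7 and 95.3 CPM in Cultured members, against 26.1, 44.6, 38.6, 20.4, 19.2 and 19.6 CPM in matched cells. TRIB3 stood at 87.5, 86.8 and 82.7 CPM in Transplanted members and 77.2, 51.0 and 55.9 CPM in Cultured members, against 12.3, 14.9, 21.8, 8.84, 15 and 13.0 CPM in matched cells. Members and matched cells do not overlap for any of these 3 genes, whose counts the rule used to choose the members.

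PPP1R27 was the most uneven of the 4, at 191, 36.6 and 31.5 CPM in Transplanted members and 88.8, 7.45 and 3.66 CPM in Cultured members, against 10.5, 1.14, 3.91, 2.86, 0.673 and 0 CPM in matched cells. It was highest in Set 1 in both groups and higher in the Transplanted sample of each Set. It was detected in 48.7%, 18.6% and 18.1% of Transplanted members, against 24.5%, 7.15% and 5.41% of Cultured members. The members held 76.7%, 97.1% and 90.5% of all PPP1R27 UMIs of kept cells in the Transplanted samples, against 44.1%, 84.8% and 25.0% in the Cultured samples. BBC3 was detected in 81.3% to 92.4% of members of every sample, HRK in 60.3% to 85.1% and TRIB3 in 54.5% to 83.9%.

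The other markers given with these cells were ATF3, a stress-induced transcription factor, and STMN4, a stathmin of the neuronal cytoskeleton. ATF3 stood at 172, 177 and 169.8 CPM in Transplanted members and 146, 86.5 and 160.3 CPM in Cultured members, against 98.8, 92.7, 118, 81.0, 61.1 and 97.4 CPM in matched cells. STMN4 stood at 172, 110.5 and 100.3 CPM in Transplanted members and 125, 90.8 and 98.9 CPM in Cultured members, against 70.9, 65.8, 68.2, 51.9, 73.7 and 46.1 CPM in matched cells. Both were higher in members than in matched cells of every sample. Against all other cells, STMN4 was lower in members of Cultured 2, at 90.8 CPM against 119.6 CPM, and higher in members of the remaining samples. Matched cells of the 6 samples were well above 0 for both genes, so neither marks members alone.

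The share of members was 9.09%, 12.4% and 12.6% of kept cells in Transplanted 1, 2 and 3, against 1.62%, 12.1% and 3.93% in Cultured 1, 2 and 3. The exact 95% binomial intervals, which cover counting error only, were 8.46% to 9.75%, 10.0% to 15.1% and 11.7% to 13.6% in the Transplanted samples, against 1.44% to 1.82%, 11.5% to 12.7% and 3.09% to 4.90% in the Cultured samples. The Transplanted share was higher in 3 of 3 Sets, but Cultured 2 reached the level of the Transplanted samples, so the groups overlapped. The mean was 11.4% ± 1.98 in Transplanted samples and 5.88% ± 5.50 in Cultured samples (SD, n = 3 each), a difference of 5.50 percentage points with a two-sided exact permutation p of 0.2. With 3 samples against 3 this test cannot go below 0.1, and no label says whether samples of 1 group came from separate eyes, so p-values measure the spread between these samples. The difference was 3.37 points without Cultured 1 and 8.60 points without Cultured 2.

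**Figure D1:**
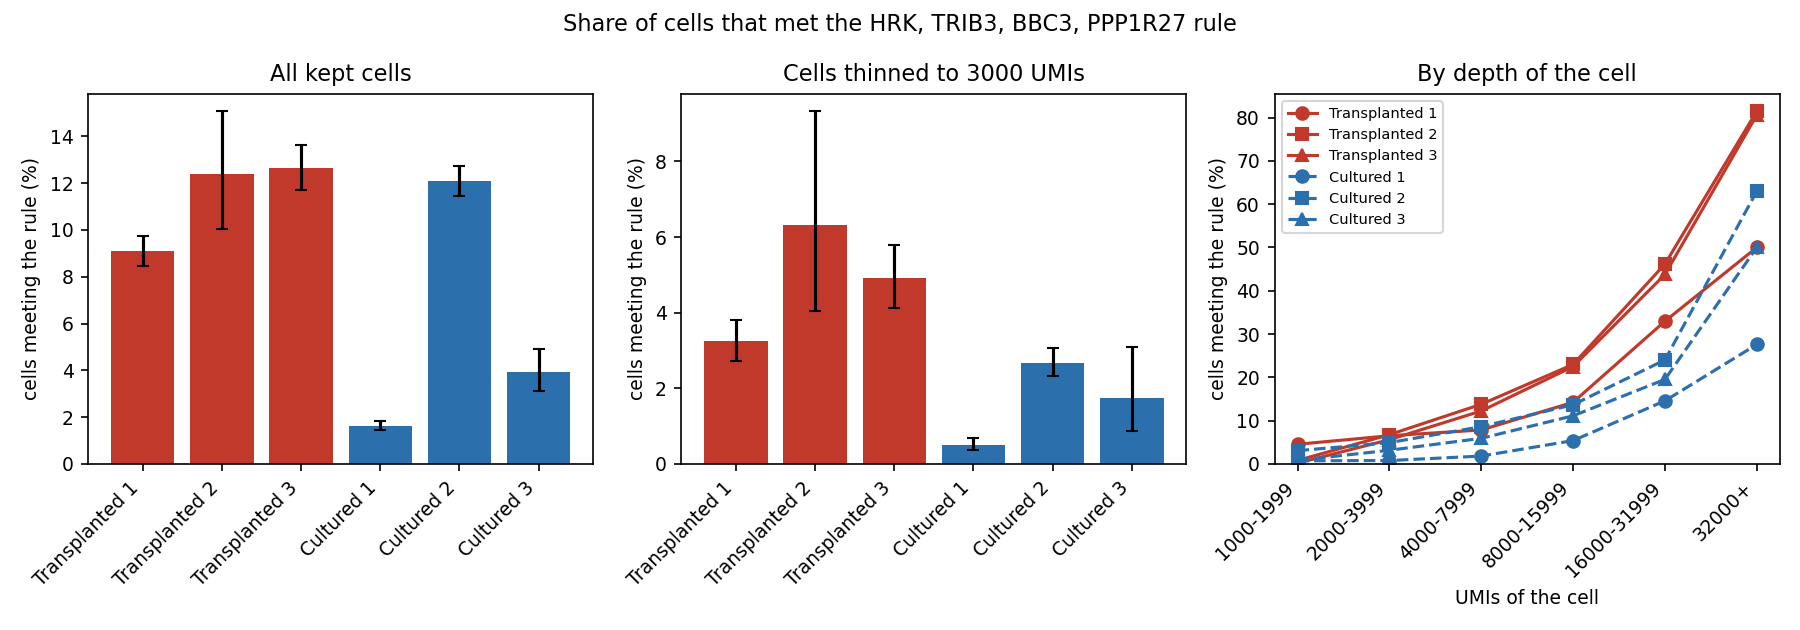
Percent of kept cells that are members in each sample, Transplanted left of Cultured: over all kept cells, after each cell was thinned to 3000 UMIs, and by UMI total. Error bars are exact 95% binomial intervals. The thinned shares of the Transplanted samples lie at 3.24% to 6.32%, above the 0.509% to 2.68% of the Cultured samples, and the share climbs with the UMI total in every sample.

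After thinning to 3000 UMIs the groups did not overlap, while after thinning to 1000 UMIs they did. After thinning to 3000 UMIs, members were 3.24%, 6.32% and 4.91% of the cells in Transplanted 1, 2 and 3 (139 of 4290, 23 of 364 and 130 of 2648), against 0.509%, 2.68% and 1.74% in Cultured 1, 2 and 3 (47 of 9229, 196 of 7322 and 11 of 632). No Cultured sample reached a Transplanted one, and the difference was 3.18 points, with an exact permutation p of 0.1, the smallest this design gives. Thinning left out the 3519, 330 and 2170 Transplanted cells and the 8670, 3330 and 1253 Cultured cells with fewer UMIs. After thinning to 1000 UMIs, which keeps every cell, 243 members remained, and the shares were 1.31%, 0.288% and 0.664% in Transplanted samples, against 0.162%, 0.648% and 0.477% in Cultured samples, with an exact permutation p of 0.4.

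Within bands of UMI total, the Transplanted sample had the larger share in 3 of 3 Sets in each of the 5 bands from 2000 UMIs up, and in 1 of 3 Sets between 1000 and 2000 UMIs. Between 4000 and 8000 UMIs, members were 7.84%, 13.8% and 12.2% of Transplanted cells, against 1.81%, 8.60% and 5.91% of Cultured cells. From 32000 UMIs up they were 50%, 81.5% and 80.6% of Transplanted cells, against 27.6%, 63.0% and 50% of Cultured cells. Most of the deepest cells therefore met the rule in 3 of the 6 samples, Transplanted 2, Transplanted 3 and Cultured 2. Cells with the highest doublet scores made up 13.4%, 1.16% and 3.45% of Transplanted members and 27.2%, 14.5% and 1.35% of Cultured members, against 5.54%, 0.493%, 3.92%, 14.1%, 7.71% and 1.49% of other cells. Without them the difference in share was 5.60 points.

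Outside the 4 genes of the rule, genes of the ATF4 pathway were higher in members than in matched cells. Of 32 listed ATF4 and integrated stress response genes, all measured, 13 rose in members relative to matched cells and none fell, with a median log2 change of 0.40, by edgeR's quasi-likelihood test at an adjusted p of 0.05. Among all 16891 genes tested the median change was -0.02, and 562 genes (3.33%) were called, 114 higher (0.675%) and 448 lower (2.65%). The summed level of the ATF4 list was 2272, 2169 and 2025 CPM in Transplanted members and 1776, 1827 and 2146 CPM in Cultured members, against 1521, 1479, 1588, 1320, 1504 and 1608 CPM in matched cells. Members were higher in 6 of 6 samples.

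DDIT3, the CHOP transcription factor that acts upstream of TRIB3, stood at 509.8, 445 and 477 CPM in Transplanted members and 281, 214 and 215 CPM in Cultured members, against 299.5, 233, 328, 166, 155 and 141 CPM in matched cells. It was higher in members of every sample, with a log2 change of 0.74 ± 0.11 (SE) and an edgeR adjusted p of 0.00756. CEBPB, a dimer partner of ATF4 and DDIT3, stood at 97.3, 78.6 and 45.9 CPM in Transplanted members and 37.8, 38.2 and 55.0 CPM in Cultured members, against 50.2, 28.0, 29.6, 26.1, 28.1 and 33.5 CPM in matched cells. Its log2 change was 0.81 ± 0.13 with an edgeR adjusted p of 0.00968. The related factors ATF5 (log2 0.75 ± 0.12, adjusted p 0.00832) and CEBPG (log2 0.48, adjusted p 0.0113) also rose; within 1.25-fold UMIs ATF5 was not called, with an adjusted p of 0.0777.

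GDF15, a secreted stress hormone, had the largest change of the list. It stood at 33.1, 21.6 and 13.1 CPM in Transplanted members and 19.5, 15.3 and 11 CPM in Cultured members, against 12.6, 9.72, 5.63, 7.15, 8.08 and 7.46 CPM in matched cells. Each member value exceeded the matched value of its sample, although levels were low throughout. The log2 change was 1.21 ± 0.11 with an edgeR adjusted p of 0.000818. SESN2, a sestrin that restrains mTORC1 signalling, stood at 25.8, 33.0 and 39.2 CPM in Transplanted members and 24.4, 34.0 and 47.6 CPM in Cultured members, against 13.9, 27.5, 24.6, 11.8, 22.7 and 31.7 CPM in matched cells. Its log2 change was 0.74 ± 0.08, with an edgeR adjusted p of 0.00201, and it too was higher in 6 of 6 samples.

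SLC3A2, the heavy chain of the amino acid exchangers, stood at 324, 226 and 158 CPM in Transplanted members and 242, 229.9 and 156 CPM in Cultured members, against 199.6, 115, 108, 164, 174 and 105 CPM in matched cells, a log2 change of 0.68 ± 0.11 with an edgeR adjusted p of 0.0113. SHMT2 and MTHFD2, enzymes of mitochondrial one-carbon metabolism, rose by 0.71 and 0.42 on the log2 scale, and the transfer RNA synthetases WARS and GARS rose by 0.42 and 0.35. DDIT4, an inhibitor of mTORC1, rose by 0.63, and CHAC1 by 0.86 ± 0.18, with CHAC1 higher in 5 of 6 samples. ATF4 itself, which is controlled largely at translation, had a log2 change of 0.24 with an edgeR adjusted p of 0.122, and ASNS, the asparagine synthetase, 0.41 with an adjusted p of 0.204. The serine synthesis enzymes PSAT1 and PHGDH, the synthetases SARS and AARS and the cystine transporter SLC7A11 were not called either, with log2 changes from 0.22 to 0.52. VLDLR and JDP2, at 0.01 and -0.03, were among the 19 listed genes that did not pass.

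In the thinned set, 18 of the 27 measured ATF4-list genes rose and none fell, with a median log2 change of 0.58, where 749 of 10365 genes (7.23%) were called, 271 higher (2.61%) and 478 lower (4.61%). DDIT3 then had a log2 change of 1.12 ± 0.13, CEBPB 1.34 ± 0.13, GDF15 2.19 ± 0.24 and SLC3A2 1.05 ± 0.11. With matched cells within 1.25-fold UMIs, 20 of 32 rose and none fell, where 1068 of 16888 genes (6.32%) were called, 337 higher (2%) and 731 lower (4.33%). The count for the list rested on Transplanted 3 and Cultured 2, being 2 without Transplanted 3 and 6 without Cultured 2. Over all genes, 38 and 64 were called without those samples.

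**Figure D2:**
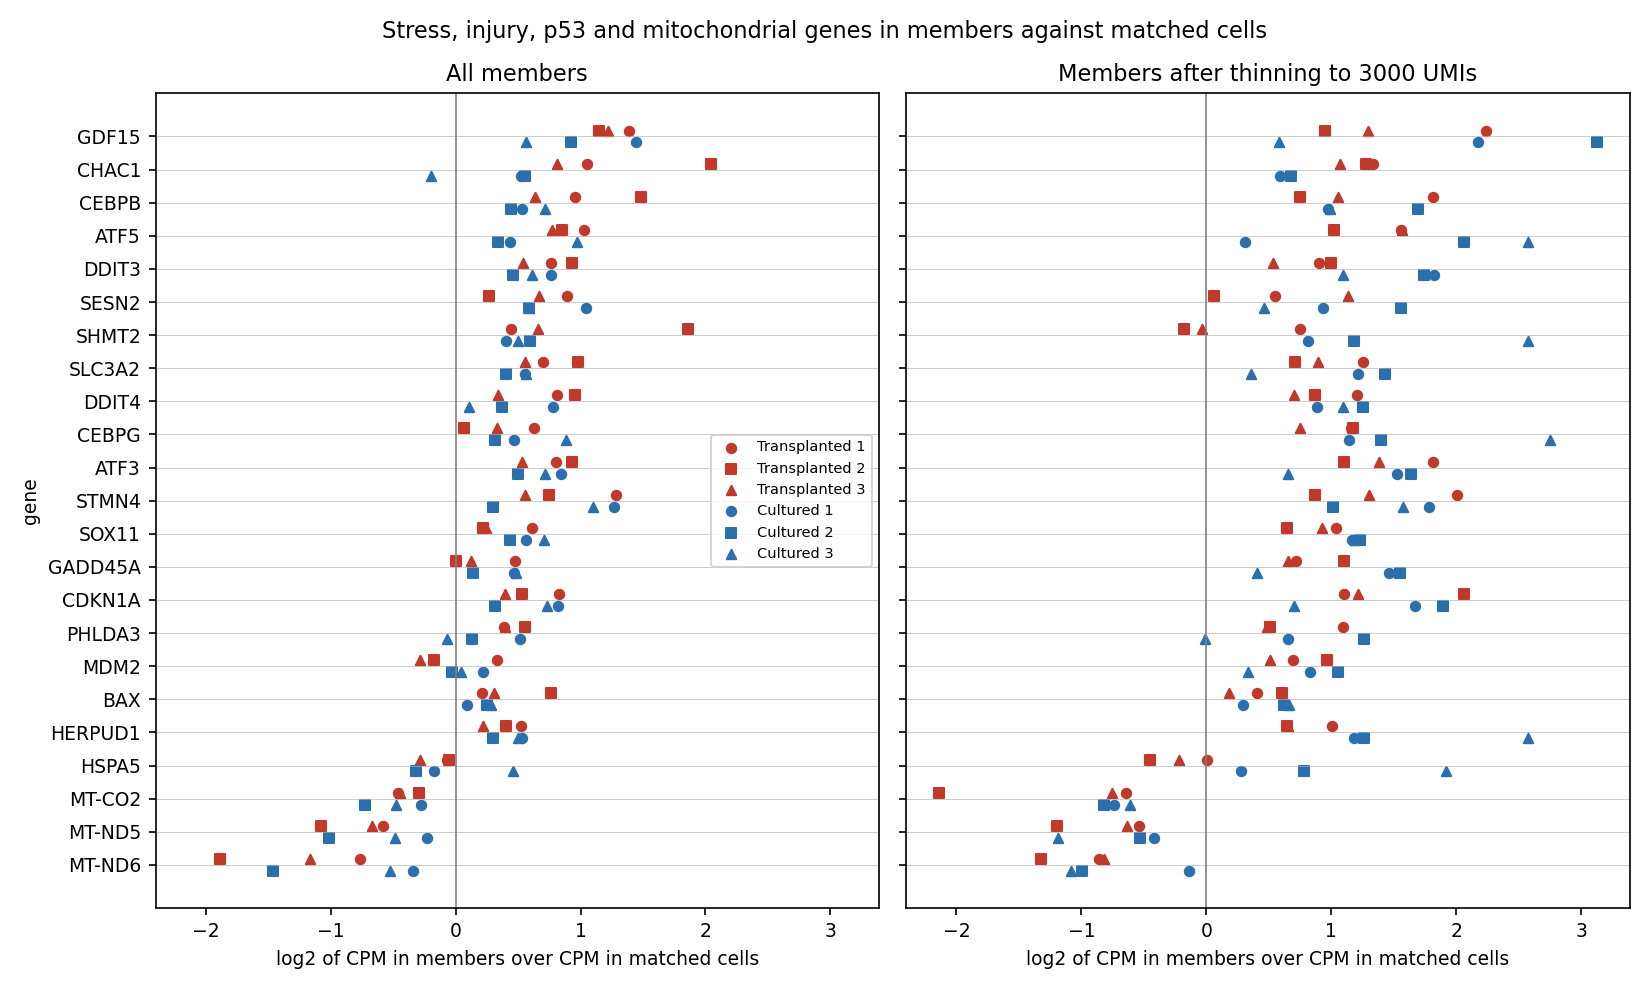
Log2 ratio of CPM in members to CPM in matched cells for 23 stress genes, 1 point per sample, Transplanted listed before Cultured; the left panel has all members and the right panel the members after thinning to 3000 UMIs. Ratios with 0 CPM on either side are not drawn. DDIT3, SESN2, CEBPB and GDF15 lie to the right of 0 in 6 of 6 samples in both panels, and HSPA5, at a log2 change of -0.03, lies around 0.

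The endoplasmic reticulum branch of the stress response did not follow as a group. Of 20 listed genes of the unfolded protein response, HERPUD1, a component of endoplasmic reticulum-associated degradation, rose (log2 0.47, edgeR adjusted p 0.0134) and none fell, with a list median of -0.01. HSPA5, the chaperone BiP that heads this response, stood at 285, 258 and 239.6 CPM in Transplanted members and 207, 189.8 and 162 CPM in Cultured members, against 299, 268, 292, 233, 236 and 118 CPM in matched cells. Its members were lower in every sample except Cultured 3, and its log2 change was -0.03 with an edgeR adjusted p of 0.919. In the thinned set HERPUD1, XBP1 and SEL1L rose and SDF2L1 fell.

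Of 19 measured p53 targets, only CDKN1A passed in all members, with a list median of 0.20. CDKN1A, the cell cycle inhibitor p21, stood at 43.7, 33.0 and 30.7 CPM in Transplanted members and 79.8, 55.8 and 109.9 CPM in Cultured members, against 24.7, 22.9, 23.4, 45.2, 44.8 and 66.2 CPM in matched cells. It was higher in members of every sample and higher in Cultured than in Transplanted samples on both sides, with a log2 change of 0.63 ± 0.08 and an edgeR adjusted p of 0.0037. In the thinned set 10 of 15 p53 targets rose and none fell, with a median of 0.59. Among them, CDKN1A rose by 1.51, the death receptor TNFRSF10B by 1.07, PHLDA3, an inhibitor of AKT, by 0.87, and MDM2, the ubiquitin ligase of p53, by 0.76. Within 1.25-fold UMIs 8 of 19 rose.

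Beyond HRK and BBC3 themselves, the 19 measured BCL2 family and caspase genes held no call in all members (edgeR, median log2 0.06). In the thinned set BCL2, a survival protein, fell by 1.45 (edgeR adjusted p 0.000166), while BAX, a pore-forming death protein, rose by 0.38. BCL2 was at 2.44, 2.96 and 13.7 CPM in thinned Transplanted members and 0, 10.6 and 21.0 CPM in thinned Cultured members, against 8.13, 35.1, 22.1, 15.4, 34.3 and 28.2 CPM in matched cells. Members were lower in 6 of 6 samples, although the levels rest on few UMIs.

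Of 17 JNK and axon injury genes, 3 rose and none fell (median 0.33, but 0.09 in the thinned set and 0.06 within 1.25-fold UMIs): SOX11 and KLF6, transcription factors linked to axon regrowth, and GADD45A, a growth arrest gene. SOX11 stood at 136, 87.0 and 79.5 CPM in Transplanted members and 170.1, 108 and 289 CPM in Cultured members, against 88.9, 74.9, 67.2, 115, 79.6 and 178 CPM in matched cells, with a log2 change of 0.52 ± 0.08 and an edgeR adjusted p of 0.00755. In the thinned set SOX11 rose by 1.0, GADD45A by 1.02, and MAPK8IP1, DUSP10 and the growth cone gene GAP43 also rose, while MAPK10, a neuronal JNK, fell. KLF6 was at 0.04 there, with an adjusted p of 0.919.

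Other stress lists held few calls. Of 22 immediate early genes and 14 heat shock genes none passed in either direction in all members, with medians of 0.12 and -0.02, by edgeR with the same background of 3.33%. In the thinned set FOSB and EGR1, activity-induced transcription factors, fell along with ZFP36, while IER5 and JUND rose. The NRF2 list had 1 rise of 12, in MAFG, and the 19 hypoxia and glycolysis genes had no call. VEGFA, the vascular growth factor, had a log2 change of 0.23 in all members with an adjusted p of 0.235, and rose by 1.04 in the thinned set.

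Members had a lower mitochondrial share than matched cells in 6 of 6 samples. The median share was 2.94%, 1.23% and 2.08% in Transplanted members and 1.23%, 1.71% and 0.740% in Cultured members, against 4.41%, 2.22%, 2.85%, 1.57%, 2.83% and 1.19% in matched cells. The mean difference was -0.856 ± 0.425 percentage points (SD, n = 6), with a two-sided exact sign-flip p of 0.031, the smallest that 6 pairs allow. It was -1.06 points in the thinned set and -0.915 points within 1.25-fold UMIs, again lower in 6 of 6. Under 1% mitochondrial UMIs were found in 31.4% of members, 18.4% of matched cells and 20.6% of all other cells, and over 10% in 0.0654% of members and 0.612% of matched cells.

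**Figure D3:**
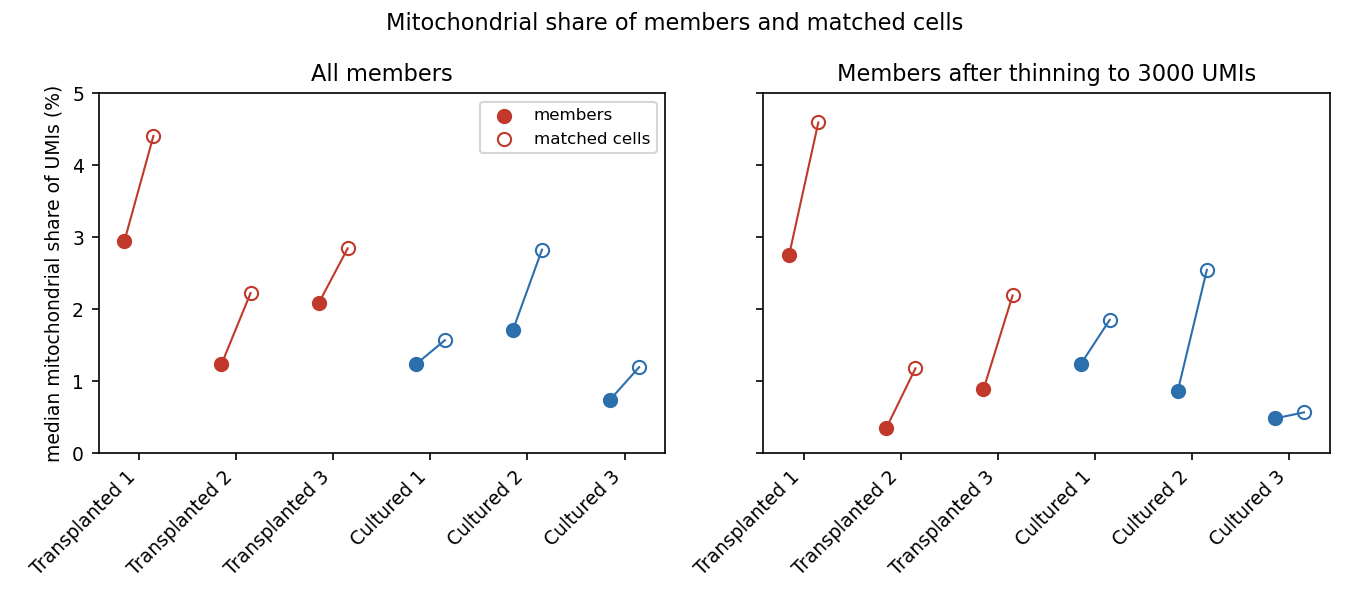
Median percent of UMIs from mitochondrially encoded genes in each sample, with filled points for members and open points for matched cells and the Transplanted samples left of the Cultured samples. The member point is the lower of each pair, and the widest gap is in Transplanted 1, with 2.94% in members and 4.41% in matched cells.

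By gene, 4 of the 13 mitochondrially encoded messenger RNAs fell in all members and none rose, with a median log2 change of -0.47. They were MT-ND6, MT-ND5 and MT-ND4L, subunits of complex I, and MT-ATP8, a subunit of ATP synthase. MT-ND6 stood at 54.6, 40.7 and 85.4 CPM in Transplanted members and 39.3, 43.1 and 191 CPM in Cultured members, against 92.7, 149.9, 191, 49.9, 118 and 274 CPM in matched cells. It was lower in members of every sample, with a log2 change of -0.98 ± 0.14 and an edgeR adjusted p of 0.00501. All 13 fell in the thinned set and all 13 within 1.25-fold UMIs, with medians of -0.78 and -0.45. The nuclear-encoded respiratory chain genes held no call among 77, with a median of 0.25 in all members and 0.02 in the thinned set.

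Among the largest rises outside the lists was AANAT, the enzyme that starts melatonin synthesis from serotonin, which rose by 0.78 ± 0.12 (edgeR adjusted p 0.00926). It stood at 52.9, 70.9 and 59.8 CPM in Transplanted members and 53.6, 31.7 and 35.7 CPM in Cultured members, against 34.6, 28.0, 35.9, 29.3, 24.2 and 21.9 CPM in matched cells. The phosphatase DUSP26 rose by 0.69, the zinc-finger factor INSM2 by 0.66, the hexokinase-related HKDC1 by 0.68 and VTN, which encodes vitronectin, by 0.78. Of these, VTN and INSM2 were not called in the thinned set, with adjusted p of 0.155 and 0.0755, and HKDC1 was not called within 1.25-fold UMIs, with an adjusted p of 0.313.

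The largest fall by the naming rule was in GRIA4, an AMPA-type glutamate receptor subunit, which stood at 13.5, 33.0 and 39.1 CPM in Transplanted members and 14.2, 77.5 and 105 CPM in Cultured members, against 18.1, 163, 151, 22.9, 175 and 159 CPM in matched cells. Members were lower in every sample and the gap was smallest in Set 1, with a log2 change of -1.19 ± 0.18 and an edgeR adjusted p of 0.00756. OPCML, an adhesion protein of neurons, fell by 1.17, NRP1, a receptor for semaphorins and VEGF, by 0.98, PCDH7, a protocadherin, by 0.82, and TIMP3, an inhibitor of matrix proteases, by 0.85. These 5 genes also fell in the thinned set, OPCML by 2.39 and PCDH7 by 1.75. In Set 1 OPCML was near 0 throughout, at 1.71 CPM in members of Transplanted 1 and 0.375 CPM in members of Cultured 1, against 2.33 and 1.82 CPM in their matched cells. PLCG2, FSIP2-AS1 and BCL2L14 fell in all members but not in the thinned set, where their adjusted p were 0.379, 0.724 and 0.74. PLCG2 was at 0.245 and 0.375 CPM in members of Transplanted 1 and Cultured 1, against 0.380 and 0.390 CPM in their matched cells. Members of Transplanted 2 had 336 CPM. FSIP2-AS1 was at 0.245 and 0 CPM in members of Transplanted 1 and Cultured 1, against 0.325 and 0.520 CPM in their matched cells. BCL2L14 was at 0 CPM in those members, against 0.108 and 0.130 CPM. Both were higher in every sample of Sets 2 and 3. The levels of OPCML, PLCG2, FSIP2-AS1 and BCL2L14 thus differed with the Set and the Cell Ranger version, whose part was not tested.

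Each retinal list led some members, although the amacrine and ganglion cell lists led 0 members of Cultured 3. The shared photoreceptor list led 1075 members (35.2%), Müller glia 380 (12.4%), rods 304, neurogenic precursors 223, dividing progenitors 165, bipolar cells 130, cones 122, horizontal cells 82, retinal ganglion cells 58 and amacrine cells 44. A further 263 (8.61%) were led by no list. Photoreceptor lists together led 40.7%, 55.8% and 64.5% of Transplanted members and 27.9%, 50.9% and 47.3% of Cultured members, against 33.3%, 42.6%, 53.5%, 25.2%, 38.5% and 37.6% of other cells. The share was higher among members in 6 of 6 samples, and other cells were shallower. After thinning to 3000 UMIs, the member rate in photoreceptor-led cells was 4.88%, 3.38% and 3.05% in Transplanted samples and 0.822%, 2.11% and 1.51% in Cultured samples, against 3.24%, 6.32%, 4.91%, 0.509%, 2.68% and 1.74% over all thinned cells. Photoreceptor-led cells were thus below the whole sample in 4 of 6 samples and above it in Transplanted 1 and Cultured 1.

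Rod markers summed to 921 to 2022 CPM in members and 812 to 2003 CPM in matched cells, and shared photoreceptor markers to 2458 to 5160 CPM and 2138 to 4457 CPM; for both lists the members were higher in 6 of 6 samples. The rod log2 ratio ranged from 0.014 in Transplanted 3 to 0.378 in Cultured 3, with a median of 0.119. Matched cells shared the leading list of their member, and lists are scored from these same markers, so marker sums are a description. Mural or fibroblast markers were lower in members in 6 of 6 samples, amacrine and dividing progenitor markers in 5 of 6 and bipolar markers in 4 of 6. NRL, the transcription factor that fixes rod fate, stood at 646, 1378 and 1298 CPM in Transplanted members and 664, 1203 and 830.0 CPM in Cultured members, against 562, 1198, 1234, 528, 1161 and 588 CPM in matched cells. NRL was higher in members of every sample, but the log2 change of 0.29 was not called (edgeR adjusted p 0.187) and was -0.05 in the thinned set. Of 25 genes of photoreceptor function none was called in all members, while in the thinned set 4 of 21 fell: NR2E3, a rod fate factor, ROM1, an outer segment disc protein, PDE6B, a subunit of the rod phosphodiesterase, and IMPG1, of the matrix around photoreceptors. The lead of the top list over the next one, in standardised units, was smaller in members in 6 of 6 samples, at 0.324, 0.282 and 0.318 in Transplanted members and 0.333, 0.237 and 0.278 in Cultured members, against 0.376, 0.401, 0.388, 0.386, 0.345 and 0.372 in matched cells.

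Samples contribute unequally to each leading list, so rates pooled over samples describe these cells only, and their order was not tested. After thinning to 3000 UMIs, the pooled member rate was 7.52% among cells led by no list (67 of 891), 5.43% for retinal ganglion cells (24 of 442), 4.34% for bipolar cells (37 of 853) and 3.82% for neurogenic precursors (63 of 1650). Rods followed at 3.02%, shared photoreceptor at 2.53%, horizontal cells at 1.89%, Müller glia at 1.53% and cones at 1.30%. Dividing progenitors stood at 0.700%, amacrine cells at 0.605% and the mural or fibroblast list at 0.586% (exact interval 0.160% to 1.49%). The choroid plexus list was lower, at 0.437% (1 of 229). The endothelial list stood at 2.13% (5 of 235), retinal pigment epithelium at 1.86% (9 of 483) and astrocytes at 0.943% (4 of 424). Within samples the order differed. Cells led by no list were at 3.33% in Transplanted 1, below neurogenic precursors (8.14%), cones (5.19%) and the shared photoreceptor list (4.98%), and at 0.417% in Cultured 1, below rods (1.30%) and ganglion cells (1.20%). Cultured 1, the sample with the lowest member rate, held 2963 of the 3713 cells led by the dividing list. That list stood at 10.3% in Transplanted 3 (4 of 39), against 2.93% for rods and 3.03% for the shared photoreceptor list there, and at 1.44% in Transplanted 1. Amacrine cells stood at 2.52% in Transplanted 3. Of 82 thinned cells led by the myeloid list none was a member, with an exact interval up to 4.40%. Amacrine markers include SLC6A9 and ganglion cell markers include GAP43, which also belong to the stress lists.

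**Figure D4:**
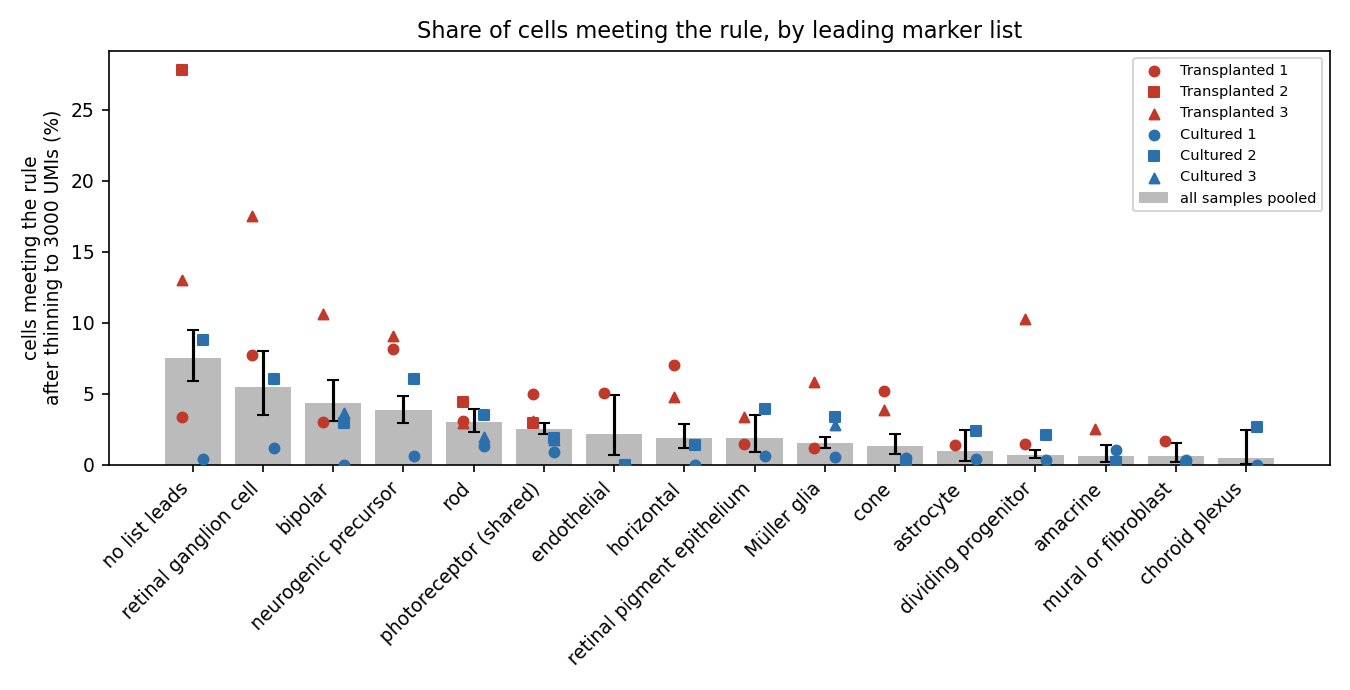
Percent of thinned cells that are members, by leading marker list, for the lists that led most cells; bars are pooled over samples with exact 95% binomial intervals, and points are samples with at least 30 such cells, Transplanted listed before Cultured. Cells led by no list have a pooled rate of 7.52%, but 3.33% in Transplanted 1 and 0.417% in Cultured 1. Dividing progenitors have a pooled rate of 0.700%, but 10.3% in Transplanted 3.

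Within photoreceptor-led cells the thinned member rates given above did not overlap between Transplanted and Cultured samples. The ATF4 list was higher in members than in matched cells in 6 of 6 samples among cells led by the shared photoreceptor list (mean 1972 CPM in members and 1445 CPM in matched cells), in 4 of 4 for rods (2345 and 1555 CPM), cones (2059 and 1390 CPM), Müller glia (1992 and 1525 CPM), dividing progenitors (1801 and 1456 CPM) and neurogenic precursors (3087 and 1987 CPM). For the retinal pigment epithelium list members were higher in 1 of 2 samples. Mitochondrially encoded genes were lower in members in every such sample for cones, Müller glia, dividing progenitors, neurogenic precursors and bipolar cells, and in 3 of 4 for rods. Not every list was measured in this way. A sample entered for a list only with at least 10 members led by it, so the means cover different samples. Among the groups measured, cells led by no list had the highest mean ATF4-list level. Over 5 samples it was 5068 CPM in members and 2689 CPM in matched cells. Mitochondrially encoded genes stood there at 8461 CPM in members and 17537 CPM in matched cells.

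Among members alone, no gene was called between Transplanted and Cultured samples by edgeR without the Set (0 of 15990, 0%); DESeq2 called 23, and 529 genes had p under 0.05 in edgeR before adjustment. With the Set number as a block 548 genes (3.43%) were called, 293 higher (1.83%) and 255 lower (1.59%) in Transplanted members. In matched cells the same blocked fit called 22 of 18811 genes (0.117%), 9 higher (0.0478%) and 13 lower (0.0691%). The difference between member and matched cells in Transplanted samples, set against that in Cultured samples, gave 0 calls of 18692 genes by edgeR (0%), with 445 at an unadjusted p under 0.05. No change described next is therefore shown to differ between members and matched cells, and DESeq2 was not run on that contrast.

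SERPINA3, an acute-phase protease inhibitor, stood at 114, 60.0 and 42.7 CPM in Transplanted members, against 3.75, 6.30 and 2.75 CPM in Cultured members. The groups did not overlap, and with the Set block the log2 change was 3.96 ± 0.30 with an edgeR adjusted p of 1.19e-05; in matched cells it was 2.84 with an adjusted p of 0.349. TMEM176B, a membrane protein of the immune and endosomal system, stood at 334, 440.3 and 308 CPM in Transplanted members, against 109, 86.3 and 20.2 CPM in Cultured members (log2 2.67 ± 0.42, edgeR adjusted p 0.00521). CEBPD, a transcription factor of inflammation, stood at 142, 272 and 159 CPM in Transplanted members, against 65.2, 42.4 and 18.3 CPM in Cultured members (log2 2.40 ± 0.38, edgeR adjusted p 0.00543), and was not called without Set 3 (adjusted p 0.0828). Both were higher in Transplanted members of all 3 Sets, with no overlap. In matched cells TMEM176B and CEBPD changed by 2.44 and 1.72, without a call (edgeR adjusted p 0.0937 and 0.102). The imprinted RNA H19, at 135, 40.9 and 38.0 CPM in Transplanted members and 24.4, 6.42 and 4.58 CPM in Cultured members, rose by 2.76 and was also called in matched cells, at 2.98 (edgeR adjusted p 0.00429).

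Among the falls, NQO1, an NRF2 target that reduces quinones, stood at 25.6, 10.9 and 9.81 CPM in Transplanted members, against 61.5, 139 and 37.6 CPM in Cultured members (log2 -2.09 ± 0.38, edgeR adjusted p 0.0169). SLC7A11, the cystine transporter that both ATF4 and NRF2 induce, stood at 6.37, 17.7 and 11.8 CPM in Transplanted members, against 18.7, 63.6 and 54.1 CPM in Cultured members (log2 -1.71 ± 0.21, edgeR adjusted p 0.000995). CYP1B1, a cytochrome P450 induced through the aryl hydrocarbon receptor, stood at 20.2, 7.91 and 6.82 CPM in Transplanted members, against 92.6, 119.8 and 23.8 CPM in Cultured members (log2 -2.48 ± 0.34, edgeR adjusted p 0.00369). For all 3 genes each Transplanted value lay under each Cultured value, and NQO1 was not called without Set 3 (adjusted p 0.276). In matched cells NQO1 (log2 -2.31, edgeR adjusted p 0.0260) and SLC7A11 (log2 -2.03, edgeR adjusted p 0.0234) were also called. CYP1B1 changed there by -2.48 without a call (edgeR adjusted p 0.126). MKI67 and TOP2A, genes of dividing cells, fell by 1.81 and 1.79, MKI67 without a call once Set 1 was left out (adjusted p 0.144), and cells led by the dividing list were 3.52%, 1.16% and 2.13% of Transplanted members, against 23.4%, 4.43% and 1.35% of Cultured members; the part of this mix in the 2 falls was not tested.

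**Figure D5:**
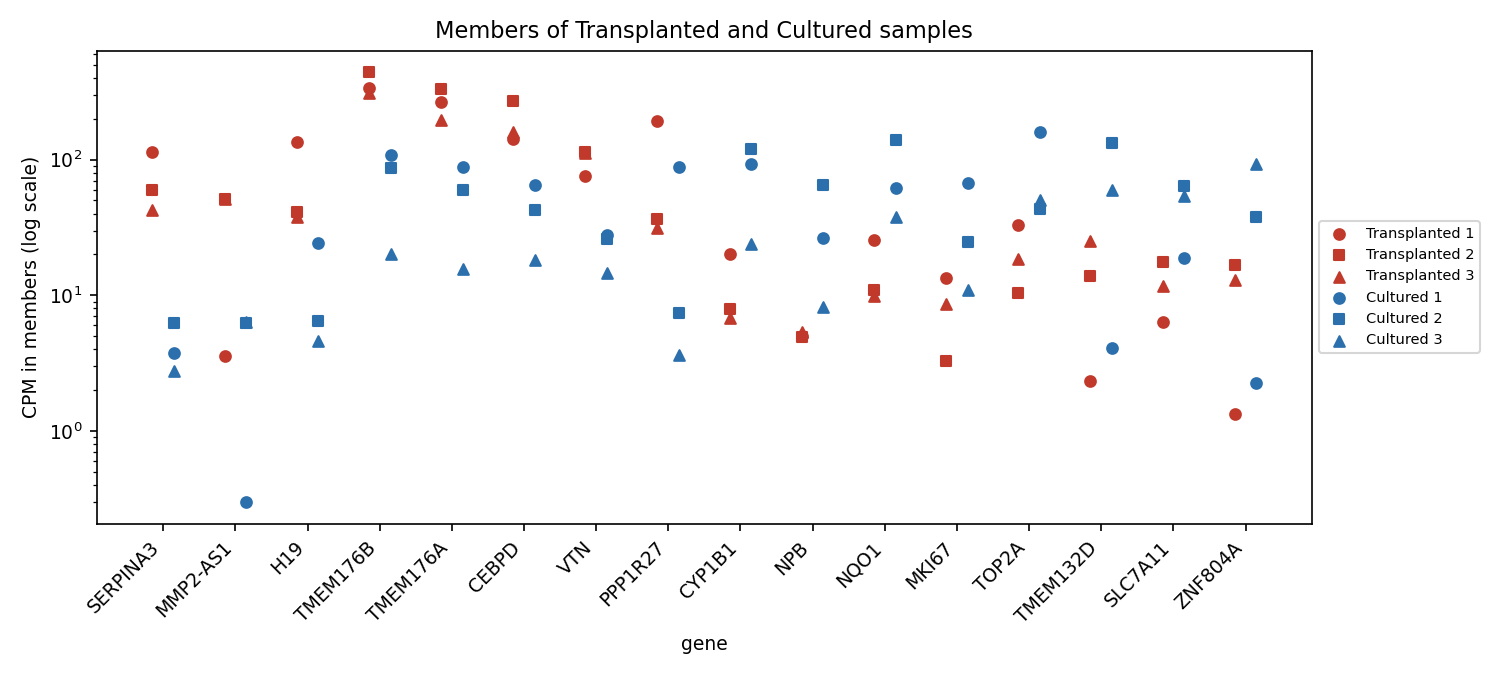
CPM in members of each sample on a log axis for the 16 genes named in this comparison, Transplanted members listed before Cultured members; a value of 0 is drawn at 0.3. SERPINA3 and TMEM176B lie higher in the 3 Transplanted samples than in any Cultured sample, and NQO1 and CYP1B1 lie lower.

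By list, with the Set block, 2 of 32 ATF4 genes rose in Transplanted members, CHAC1 by 1.13 and ATF5 by 0.81, and SLC7A11 fell; the list median was 0.25 beside -0.004 for all genes. CHAC1 and ATF5 were not called without any 1 of the Sets, with adjusted p from 0.0629 to 0.337. HERPUD1 and DNAJB9, of the unfolded protein response, rose by 1.04 and 0.83, without a fall among 20; HERPUD1 was not called without Set 1 (adjusted p 0.101), nor DNAJB9 without Set 1 or Set 2 (0.147 and 0.153). Of 14 heat shock genes 3 rose: the inducible chaperone HSPA1A, its near-identical copy HSPA1B, and DNAJB1 by 0.92. HSPA1A stood at 36.2, 28.4 and 24.1 CPM in Transplanted members, against 8.24, 5.04 and 2.75 CPM in Cultured members, with no overlap (log2 2.57 ± 0.26, edgeR adjusted p 0.000152), and reads may be split between the 2 copies. HSPA1A was also called in matched cells, at a log2 change of 2.11 (edgeR adjusted p 0.0219).

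Of 21 immediate early genes, ARC, DUSP1, IER3, JUNB and KLF4 rose and NR4A3 fell, with a list median of 0.87. JUNB, an AP-1 subunit, stood at 379, 434 and 204 CPM in Transplanted members, against 264, 114 and 87.0 CPM in Cultured members, where Cultured 1 lay above Transplanted 3 (log2 1.39 ± 0.34, edgeR adjusted p 0.0369, 0.214 without Set 2 and 0.0838 without Set 3). The p53 targets CDKN1A and ZMAT3 fell by 0.99 and 1.08 among 19 measured, CDKN1A without a call once Set 1 or Set 3 was left out (adjusted p 0.0516 and 0.0638). Of the 32 called list members besides those among the 16 named genes, leaving out Set 1 kept 14, leaving out Set 2 kept 20 and leaving out Set 3 kept 22. In the cell cycle list 6 of 15 fell and none rose. Of 25 photoreceptor genes, PCARE, GUCA1B and AIPL1 rose and the transducin subunits GNGT1 and GNGT2 fell. PCARE and GNGT2 were also called in matched cells, at 1.93 and -1.72 (edgeR adjusted p 0.0219 and 0.0380). AIPL1, a chaperone of phosphodiesterase, stood at 419, 898 and 827 CPM in Transplanted members, against 172, 377 and 235 CPM in Cultured members, with no overlap (log2 1.61 ± 0.35, edgeR adjusted p 0.0203, and 0.0502 without Set 1).

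Marker sums of other cell types in members are given without a test. The 6 T cell or NK cell markers summed to 8.94 to 20.7 CPM in Transplanted members and 0 to 5.30 CPM in Cultured members, and 5, 5 and 4 of the 6 were at 0 in members of Transplanted 1, 2 and 3. The astrocyte markers summed to 46.4 to 53.4 CPM in Transplanted members and 102 to 139 CPM in Cultured members, the amacrine markers to 32.9 to 51.0 CPM and 51.7 to 112 CPM, and the ganglion cell markers to 79.4 to 103 CPM and 119 to 187 CPM. For these 4 of the 18 lists the groups did not overlap. In matched cells the groups were also apart for T cell or NK cell markers (6.02 to 14.0 against 2.99 to 4.69 CPM). The same held there for astrocyte markers (56.1 to 71.5 against 99.25 to 127 CPM). Ganglion cell markers were apart too (83.3 to 90.9 against 96.0 to 170 CPM). Amacrine markers overlapped (37.8 to 75.9 against 56.8 to 101 CPM). Among members the groups overlapped for the dividing progenitor markers, at 112 to 208 CPM in Transplanted members and 203 to 748 CPM in Cultured members, and for the myeloid markers, at 3.08 to 5.51 CPM and 2.25 to 3.66 CPM. A low share of transcripts from genes named only by clone served as a score for host-like cells; cells with such a score made up 0%, 0% and 15.1% of Transplanted members and 0%, 0.777% and 0% of Cultured members. Among other cells they made up 3.27%, 5.26% and 13.6% in Transplanted samples and 1.02%, 1.04% and 1.05% in Cultured samples. The limit was the lowest 1% of the Cultured sample of the same Set, which fixes the Cultured shares near 1%. The part of these values in the differences between the groups was not tested.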

How the data were processed

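Single-cell 3' gene expression was measured with the 10X Genomics v3.1 chemistry in 6 libraries. The deposited values are raw UMI counts per gene and cell that the authors made with Cell Ranger (6.0.2 for Set 1 and 7.1.0 for Sets 2 and 3, per the file headers) on GRCh38, per the submitters' processing notes; whether intronic reads were counted is not given in the sources used here. Members, marker lists and gene lists were chosen with earlier results of these data known. Counts were summed per sample over members and over matched cells and tested with edgeR 4.0.16 in R 4.3.3 (filterByExpr, TMM, robust quasi-likelihood, Benjamini-Hochberg adjustment over all genes, threshold 0.05), with the sample as a block; the 4 genes of the rule were left out of that fit. Transplanted and Cultured members were compared without and with the Set as a block. The Set number was taken as pairing the samples because the labels share it and the correlation of deviations within a Set was above 0.1 in each. The values were 0.892, 0.445 and 0.770. Transplanted 2 with Cultured 3 gave 0.472 and Transplanted 3 with Cultured 2 gave 0.430, so these unpaired samples also passed 0.1. The correlations therefore cannot tell pairing by Set from a split of Set 1 against Sets 2 and 3. DESeq2 1.42.0 was an alternative. The scripts were tested on simulated data. Genes named were, past the threshold, at 30 CPM or more and of 1 sign in every sample pair, the 12 largest rises and 12 largest falls (8 and 8 for Transplanted against Cultured), up to 4 per list, and called list members. Doublets were not removed in the main fits; the highest Scrublet scores (Scanpy 1.11.5; 0.8% per 1000 cells) were removed as an alternative. Of 36601 gene IDs, 34616 were found in GENCODE v29. Exact tests used SciPy 1.17.1. Intervals cover counting error only. Results for some listed genes are not reported here.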

Additional observations from a re-analysis of the deposited data

How the results depend on the processing

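Counts of calls moved with the settings. Genes called between members and matched cells numbered 562, and 1534 against all other cells, 0 with no replicate block, 1740 with no filter on low counts, 368 with at least 5 summed UMIs, 1068 within 1.25-fold UMIs and 350 without cells that scored like the host. Leaving out 1 sample gave 38 to 724; the cause was not tested. Of the 562 calls, 132 were also made in the thinned set, where 269 of the 283 measured had the same sign, and 362 within 1.25-fold UMIs. Of 36 named genes, 25 lost the call without Transplanted 3, 15 without Cultured 2, 7 in the thinned set and all 36 with no replicate block. ATF4-list genes called higher numbered 13, but 0 with no replicate block and 20 within 1.25-fold UMIs, and 2 to 16 with 1 sample left out. Between Transplanted and Cultured members, 0 genes were called, but 23 by DESeq2, 548 with the replicate block, 382 by DESeq2 with the block, 75 in the thinned set with the block, and 529, 330 and 543 with the block without Set 1, 2 and 3; leaving out 1 sample without the block gave 0 to 0. For the difference in that contrast between members and matched cells, calls were 1 against all other cells, 5 with no filter and 0 to 5 with 1 sample left out. The mitochondrial share of members minus that of matched cells ranged from -0.960 to -0.734 points with 1 sample left out, where 5 pairs allow no p under 0.0625. The difference in member share ranged from 3.37 to 8.60 points with 1 sample left out, and was 5.50 points, exact p 0.25, with sign flips within Sets as the replicate block, the smallest p that 3 pairs allow. After thinning to 1000 UMIs the member share was higher in the Transplanted sample of 2 of 3 Sets. Depth limits the thinned set, where Cultured 3 has 11 members.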

Other observations

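The largest log2 changes between members and matched cells among all tested genes were in genes below the level at which genes were named, and those given here were chosen after their values were seen. ITPKA, a kinase that phosphorylates inositol trisphosphate, was at 21.4, 7.91 and 8.59 CPM in Transplanted members and 4.87, 3.99 and 2.75 CPM in Cultured members, against 4.72, 2.86, 1.65, 1.56, 1.54 and 0.932 CPM in matched cells. It was higher in members of every sample, with a log2 change of 1.91 ± 0.18 (edgeR adjusted p 0.000818). ADM2, an adrenomedullin-family peptide, PRPH, the neuronal intermediate filament peripherin, and NPPB, a natriuretic peptide, had log2 changes of 1.40, 1.31 and 1.15 (edgeR adjusted p 0.0209, 0.0157 and 0.02), each higher in 6 of 6 samples. ADAMTS5, a matrix protease, had a log2 change of 1.34 (edgeR adjusted p 0.00538) and was higher in 5 of 6. Of these, none was measured in the thinned set, where their counts were too low for the fit.

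The members were not uniform, although which rule gene a member lacks is tied to the rule and to its depth, so the following values are given without a test. GDF15 averaged 21.3 CPM in members with HRK detected and 9.37 CPM in members without it, higher with HRK in 6 of 6 samples. GDF15 averaged 3.51 CPM in members with PPP1R27 and 29.6 CPM in members without it, and was higher with PPP1R27 in 0 of 5 samples with enough cells. The p53 list summed to 962 CPM in members with TRIB3 and 1181 CPM in members without it, higher with TRIB3 in 0 of 6 samples. Members with TRIB3 had a mean of sample median UMI totals of 11732, against 6853 in members without it.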
